A study of Mus musculus with 6 samples.

Results

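Intercalated cells are the acid- and base-secreting cells of the kidney collecting duct and connecting tubule, and 10 genes of their acid-base machinery were examined. They were picked by name from the deposited expression table: 5 subunits of the vacuolar proton pump with cell-specific distribution (Atp6v1b1, Atp6v0a4, Atp6v0d2, Atp6v1g3 and Atp6v1c2), 2 anion exchangers (Slc4a1 and Slc26a4), 2 ammonia channels (Rhcg and Rhbg) and the transcription factor Foxi1. All 10 were among the 17550 genes of the table, and all 10 passed the low-count limit, a mean of 10 over the libraries. The libraries came from kidneys of 3 KC-Tie2 and 3 Control samples, with poly(A)-selected RNA taken after saline perfusion. KC-Tie2 mice carry a Tie2 transgene in keratinocytes, the main cells of the epidermis, and are used as a psoriasis model. The labels give for the first group the genotype KC-Tie2 and for the second the genotype Control, and name no promoter, strain, sex, age or further allele for either. They do not say that each library is a separate animal, so p-values measure only the spread between these samples.

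Intercalated cells come in a type A form, which puts the proton pump on the urine side and the bicarbonate exchanger AE1 (Slc4a1) on the blood side, and so secretes acid. Type B cells carry pendrin (Slc26a4) on the urine side and secrete bicarbonate. Foxi1 is a forkhead transcription factor without which mouse intercalated cells do not mature, and it is known to act on genes of the pump and the exchangers. Rhcg and Rhbg carry ammonia, with which acid leaves the body.

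Normalized counts summed to between 23647800 and 25495500 per library, and the lowest value of any of the 10 genes in any library was 353. The kidney label was matched by the proximal tubule endocytosis receptor Lrp2, listed at 127971 or more in every library. KC-Tie2 replicate 3 lay nearest to the Control libraries on the first principal component (score 6.93, against 26.9 and 29.4 for the other KC-Tie2 libraries), and Control replicate 2 lay nearest to the KC-Tie2 libraries (-10.4, against -25.2 and -27.6 for the other Control libraries). For the 10 genes, calls that appeared when 1 of these libraries was left out are given beside each gene.

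Since Foxi1 is a forkhead factor, the promoters were searched for the forkhead core, and those of a pump subunit (Atp6v1b1), an ammonia channel (Rhcg) and the type B exchanger (Slc26a4) are printed to show a window with a match beside windows without one. RefSeq promoters (build GRCm38.p6, 250 bases before to 50 after the gene start) were matched by symbol for 7 of the 10 genes. Atp6v0d2, Slc4a1 and Rhbg had no entry. The forkhead core TGTTTA or its reverse complement TAAACA was found in 1 of the 7, that of Atp6v1b1, where it begins 98 bases before the gene start, and in 13.4% of all 32851 promoters of that length. A match describes letters only. Other forms of the forkhead site were not searched, so a window without a match may still hold one. The windows are chr6:83742767-83743066 on the plus strand for Atp6v1b1, chr7:79617608-79617907 on the minus strand for Rhcg and chr12:31559935-31560234 on the minus strand for Slc26a4, each written 5′ to 3′ with the match in capitals.
Atp6v1b1 promoter: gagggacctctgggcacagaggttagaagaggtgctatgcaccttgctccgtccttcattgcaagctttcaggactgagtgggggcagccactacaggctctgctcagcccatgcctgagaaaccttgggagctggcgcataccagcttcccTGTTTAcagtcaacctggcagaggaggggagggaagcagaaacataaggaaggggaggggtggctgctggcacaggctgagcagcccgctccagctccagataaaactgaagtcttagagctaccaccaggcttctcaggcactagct
Rhcg promoter: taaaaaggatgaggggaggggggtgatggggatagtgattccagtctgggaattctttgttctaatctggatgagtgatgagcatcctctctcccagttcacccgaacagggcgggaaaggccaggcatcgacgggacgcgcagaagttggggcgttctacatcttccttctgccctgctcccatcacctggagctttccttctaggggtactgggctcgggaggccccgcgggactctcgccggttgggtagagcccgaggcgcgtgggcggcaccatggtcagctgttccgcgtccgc
Slc26a4 promoter: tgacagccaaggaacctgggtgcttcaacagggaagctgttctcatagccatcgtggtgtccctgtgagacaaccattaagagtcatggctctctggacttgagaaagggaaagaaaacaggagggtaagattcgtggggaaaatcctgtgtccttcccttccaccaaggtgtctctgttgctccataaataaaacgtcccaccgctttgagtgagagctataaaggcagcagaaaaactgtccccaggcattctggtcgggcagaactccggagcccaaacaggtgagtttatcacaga

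Every one of the 10 genes had a higher mean in KC-Tie2 than in Control kidneys, and none passed the test over all genes. The differences were small: log2 fold changes ran from 0.083 for Atp6v0d2 to 0.34 for Foxi1, with a median of 0.26, against a median of 0.0012 over all 17539 genes tested. Limma (Benjamini-Hochberg adjustment over all genes tested) called 0 of the 10, where it called 0.855% of all genes as higher and 0.838% as lower; voom also called 0 of the 10. At an unadjusted p under 0.05, 8 of the 10 were higher in KC-Tie2 kidneys, against 7.57% of all genes, and 0 were lower, against 7.77%. The 3 KC-Tie2 libraries lay entirely above the 3 Control libraries at 6 of the 10, against 9.96% of all genes. A log2 fold change above 0 was held by 50.3% of all genes. In the authors' deposited table Rhcg alone of the 10 had an FDR under 0.05, where 1.83% of all genes did so as higher. Without KC-Tie2 replicate 2 the count at an unadjusted p under 0.05 was 3 of the 10, against 5.07% of all genes, and the median log2 fold change of the 10 was 0.20. Without Control replicate 2 the adjusted test called 2 of the 10 as higher (Rhcg and Foxi1), against 1.31% of all genes. Without KC-Tie2 replicate 3 it called 4 as higher (Atp6v1b1, Atp6v1g3, Rhcg and Rhbg), against 1.77% of all genes. Both shares were above the 0.855% of the fit with all libraries. In bulk tissue, more cells of a type and more RNA per cell cannot be told apart.

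**Figure D1:**
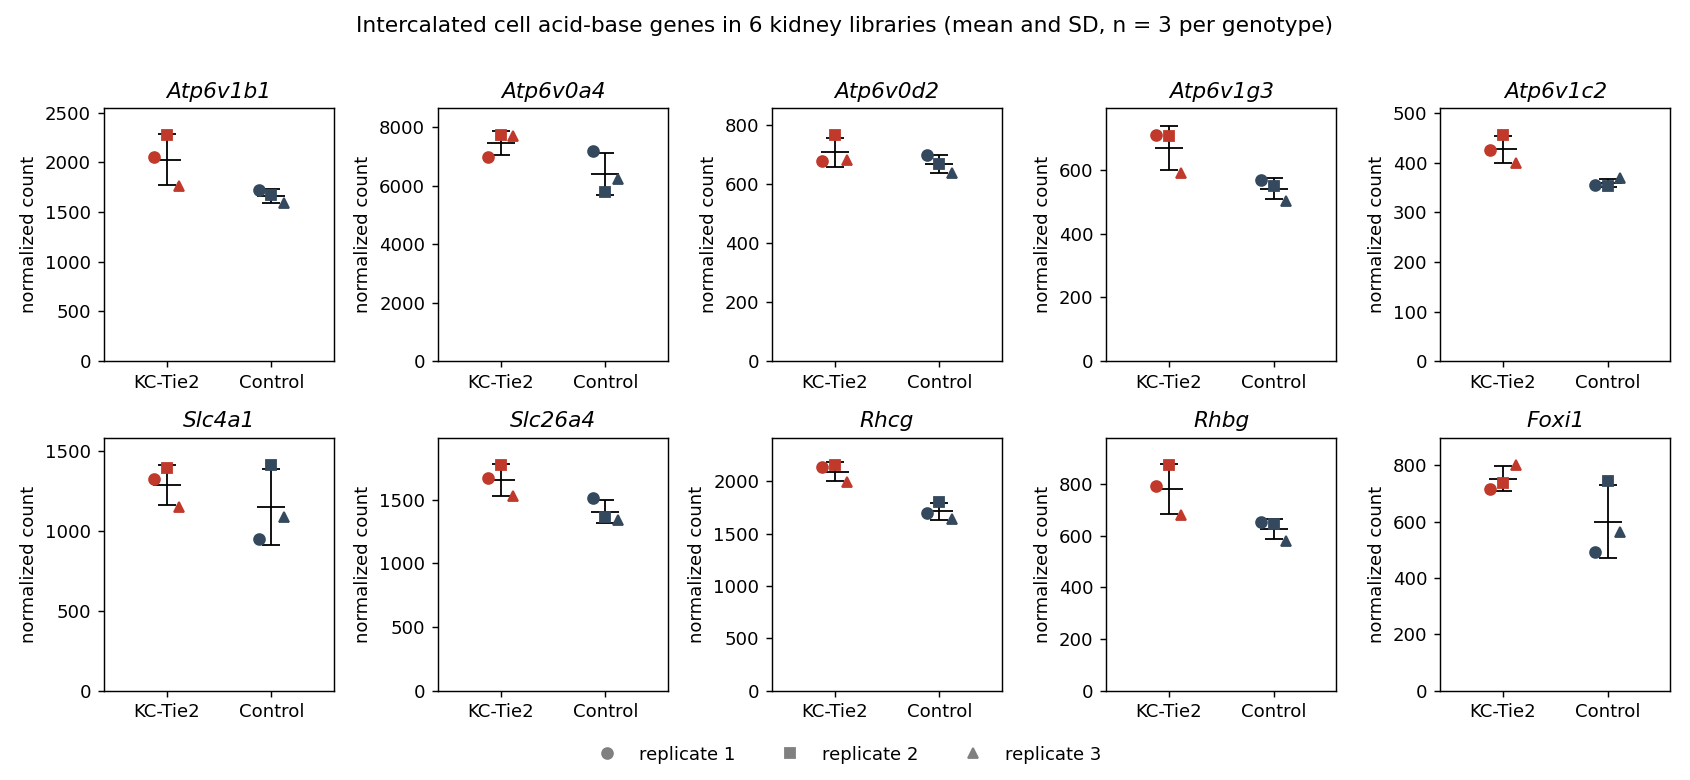
Normalized counts of the 10 genes in each library, KC-Tie2 left and Control right, with symbols for replicates and bars for mean and SD (n = 3 per genotype). KC-Tie2 replicates lie wholly above Control replicates for Atp6v1b1, Atp6v1g3, Atp6v1c2, Slc26a4, Rhcg and Rhbg, and overlap them for the other 4 genes.

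Among the pump subunits, Atp6v1b1 encodes the B1 subunit of the catalytic part, mutated in human distal renal tubular acidosis with deafness (ENSMUSG00000006269, mm39 chromosome 6, 83719972 to 83735837). It had 2052, 2272 and 1758 normalized counts in KC-Tie2 replicates 1 to 3, against 1722, 1673 and 1589.8 in Control replicates 1 to 3. The groups did not touch, with KC-Tie2 replicate 3 only just above the highest Control library. The means were 2027 ± 257 in KC-Tie2 and 1662 ± 66.8 in Control kidneys (SD, n = 3 each), a fold of 1.21 (log2 fold change 0.28 ± 0.089 SE, limma adjusted p = 0.152). Without KC-Tie2 replicate 3 the log2 fold change was 0.38 (limma adjusted p = 0.0246, the lowest of 16 alternatives, whose highest was 0.478).

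Atp6v1g3 encodes the kidney form of the G subunit of the stalk (chromosome 1, 138201476 to 138217200). Its values were 709, 709 and 592 in KC-Tie2 libraries, against 569, 551 and 505 in Control libraries, again without overlap. This was the largest difference among the pump genes, with a fold of 1.23 (log2 fold change 0.30 ± 0.095, limma adjusted p = 0.145). It passed only without KC-Tie2 replicate 3 (log2 fold change 0.39, limma adjusted p = 0.0427, within 0.0427 to 0.447 over the alternatives).

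Atp6v1c2 encodes the C2 form of the subunit that joins stalk and membrane part (chromosome 12, 17334722 to 17379360). It had 425, 455 and 400.1 in KC-Tie2 libraries, against 355, 353 and 369 in Control libraries, with the 3 Control values close together. Its fold was 1.19 (log2 fold change 0.25 ± 0.093, limma adjusted p = 0.225). Its span shares 50 bases with Pdia6 on the other strand, and no source used here states whether counting used strand.

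Atp6v0a4 encodes the a4 subunit of the membrane part, which mouse proximal tubules also make (chromosome 6, 38025418 to 38101521). It had 6987, 7713 and 7696 in KC-Tie2 libraries, against 7182, 5788 and 6221 in Control libraries. Control replicate 1 lay above KC-Tie2 replicate 1, so the groups overlapped (log2 fold change 0.23 ± 0.088, limma adjusted p = 0.235). The gene Tmem213 lies inside its span on the other strand, and D630045J12Rik overlaps its upstream end by 1413 bases on the same strand.

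Atp6v0d2 encodes the d2 subunit, found in intercalated cells and in osteoclasts (chromosome 4, 19876841 to 19922605). It had 676, 764 and 681 in KC-Tie2 libraries, against 696, 667 and 637 in Control libraries. The groups overlapped, and the log2 fold change of 0.083 was the smallest of the 10, with a 95% interval of -0.095 to 0.26 that holds 0 (limma adjusted p = 0.701).

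**Figure D2:**
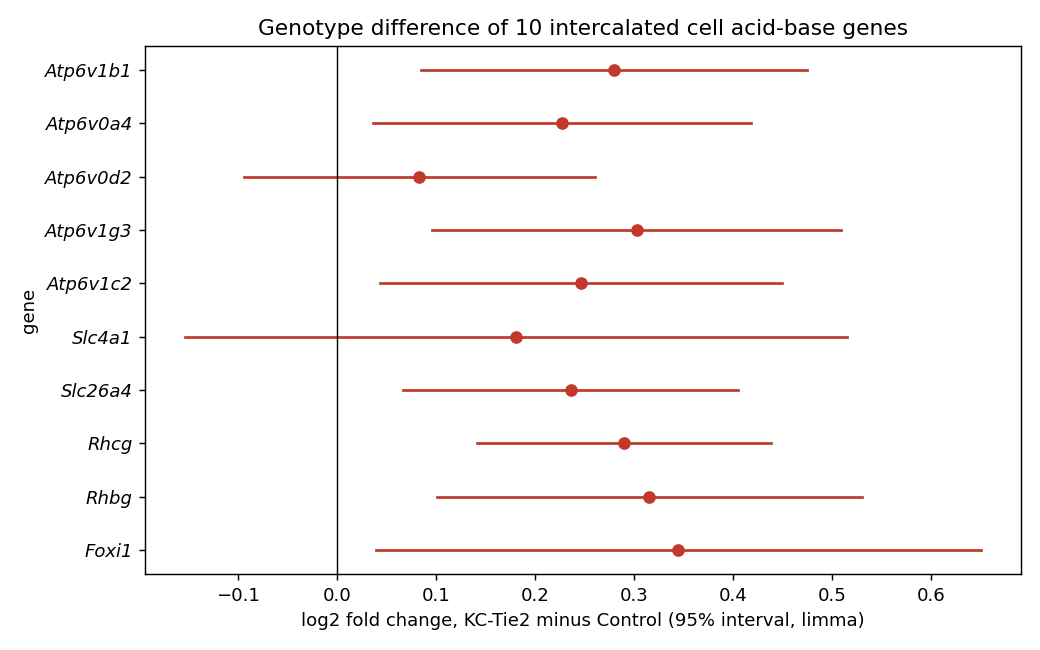
Log2 fold change of each gene, KC-Tie2 minus Control, on the log2(value + 1) scale, with its 95% interval from limma before adjustment over genes. All points lie right of 0, and the intervals of Atp6v0d2 and Slc4a1 cross it.

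Most of the other pump subunits serve acid compartments in all cells, and their median difference lay nearer to 0. None of the 18 broadly expressed subunits and accessory proteins was called, 12 lay above 0, and the median log2 fold change was 0.055, with a range of -0.13 (Atp6v1b2) to 0.16 (Atp6v0b). At an unadjusted p under 0.05, 2 were higher (Atp6v0b and Atp6v1f), against 7.57% of all genes, and 0 lower, against 7.77%. The KC-Tie2 libraries lay wholly above the Control libraries at 3 of the 18, against 9.96% of all genes. These were Atp6v0b, Atp6v1f and the membrane ring subunit Atp6v0c, whose reads could be shared with the pseudogenes Atp6v0c-ps1 and Atp6v0c-ps2. The ratio of the kidney form to its broadly expressed sister was 0.375, 0.370 and 0.272 in KC-Tie2 replicates 1 to 3 for Atp6v1b1 over Atp6v1b2, against 0.251, 0.260 and 0.246 in Control replicates 1 to 3. It was also wholly higher for Atp6v1c2 over Atp6v1c1, with 0.260, 0.257 and 0.235 in KC-Tie2 libraries, against 0.204, 0.230 and 0.224 in Control libraries. The ratios overlapped between genotypes for the a, d and G subunits. Differences between these ratios were not tested.

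**Figure D3:**
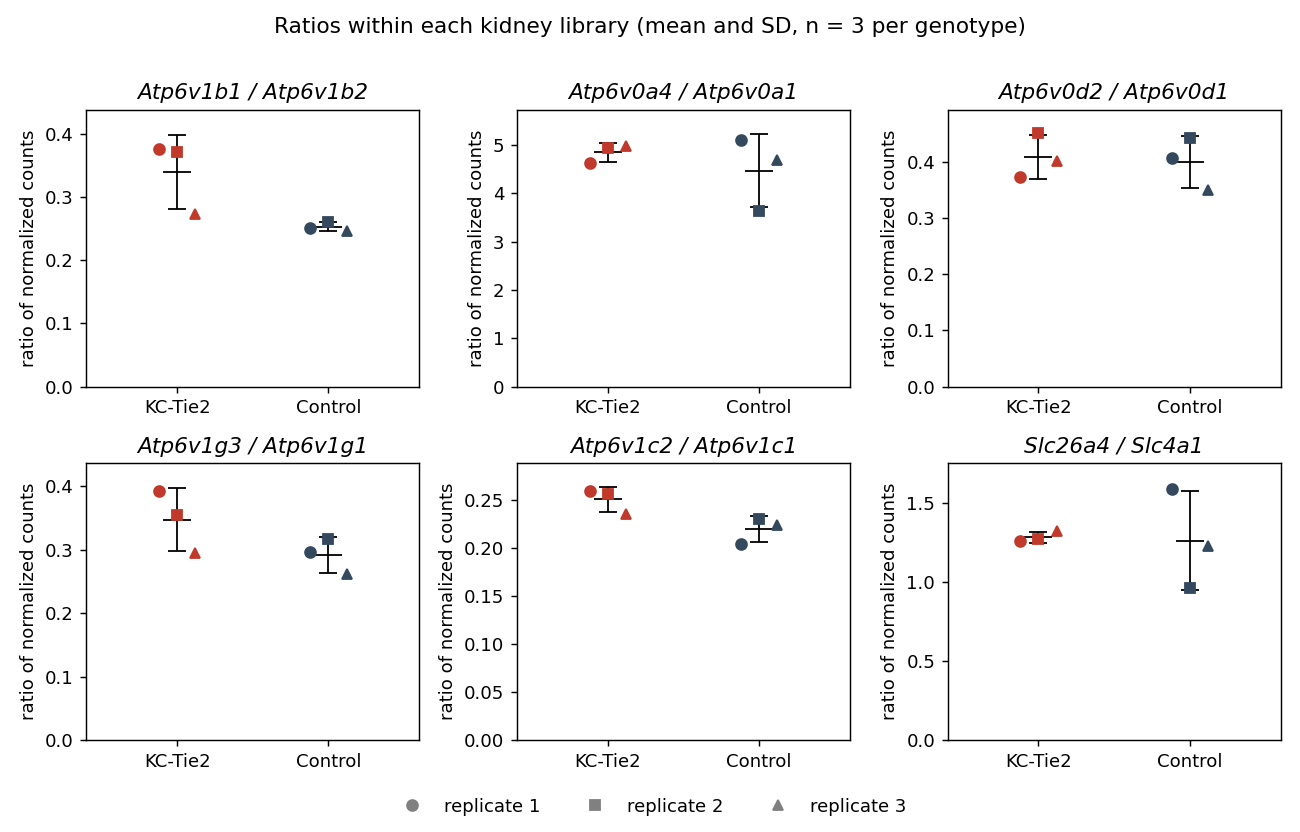
Ratios of normalized counts within each library, for kidney over broadly expressed pump subunits and for Slc26a4 over Slc4a1, KC-Tie2 left and Control right, with mean and SD (n = 3 per genotype). The genotypes separate for Atp6v1b1 over Atp6v1b2 and for Atp6v1c2 over Atp6v1c1, and overlap in the other 4 panels.

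Both ammonia channels were higher in every KC-Tie2 library than in any Control library. Rhcg, found on the urine and blood sides of intercalated and principal cells (ENSMUSG00000030549, chromosome 7, 79243111 to 79267405), had 2134, 2156 and 1989.7 in KC-Tie2 libraries, against 1699.7, 1802 and 1637 in Control libraries. The lowest KC-Tie2 library stood 188 above the highest Control library, the widest such gap of the 10 genes in normalized counts. The means were 2093 ± 90.5 in KC-Tie2 and 1713 ± 83.3 in Control kidneys (SD, n = 3 each), a fold of 1.22 with a 95% interval of 1.10 to 1.35 (log2 fold change 0.29 ± 0.068, limma adjusted p = 0.0599). Rhcg thus missed the threshold, and it passed with library weights (limma adjusted p = 0.0303), when Control replicate 2 was left out (0.0399) and when KC-Tie2 replicate 3 was (0.0376); over the 16 alternatives the adjusted p ran from 0.0303 to 0.262. In the authors' deposited table its ratio of KC-Tie2 to WT was 1.22 with an FDR of 0.0278. The predicted gene Gm45170 overlaps 1671 bases of Rhcg on the same strand.

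Rhbg, the channel of the blood side (chromosome 3, 88150181 to 88162016), had 791, 873 and 681 in KC-Tie2 libraries, against 651, 647 and 579 in Control libraries. The groups did not overlap, and the fold was 1.24 (log2 fold change 0.32 ± 0.098, limma adjusted p = 0.143). Without KC-Tie2 replicate 3 the log2 fold change was 0.41 (limma adjusted p = 0.0379, within 0.0379 to 0.469 over the alternatives).

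The exchangers mark the type A and type B cells. Slc26a4, pendrin of type B cells (chromosome 12, 31569826 to 31609968), had 1672, 1771 and 1524 in KC-Tie2 libraries, against 1509.6, 1365 and 1341 in Control libraries. KC-Tie2 replicate 3 and Control replicate 1 were nearly level, but the groups did not overlap (fold 1.18, log2 fold change 0.24 ± 0.078, limma adjusted p = 0.164). Slc4a1, the exchanger of type A cells and of red blood cells (chromosome 11, 102239650 to 102257029), had 1328, 1391 and 1149.6 in KC-Tie2 libraries, against 949, 1413 and 1088 in Control libraries. Its highest value was in Control replicate 2, and the groups overlapped (fold 1.13, log2 fold change 0.18 ± 0.14, limma adjusted p = 0.630). The Slc4a1 log2 fold change was 0.34 without Control replicate 2 (limma adjusted p = 0.0962) and 0.052 without Control replicate 1 (0.931).

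Slc4a1 is also a red cell gene, and the summed haemoglobin genes differed between libraries. The haemoglobin genes Hba-a1, Hba-a2, Hbb-bs and Hbb-bt summed to 4956, 919 and 3926 in KC-Tie2 replicates 1 to 3, against 1837, 2155 and 1422 in Control replicates 1 to 3. KC-Tie2 replicate 2, lowest in haemoglobin, was the highest KC-Tie2 library in Slc4a1, while Control replicate 2 was the highest Control library in both. Of 10 erythroid markers 5 were in the table, the haemoglobin genes and Alas2, and all 5 lay above 0 without a call (median log2 fold change 0.54, unadjusted p under 0.05 at 0). Alas2 had a limma adjusted p of 0.443 and Hbb-bt of 0.491. The part of red cells in the Slc4a1 values was not tested.

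The balance of the exchangers within a library did not separate the genotypes. The ratio of Slc26a4 to Slc4a1 was 1.26, 1.27 and 1.33 in KC-Tie2 replicates 1 to 3, against 1.59, 0.966 and 1.23 in Control replicates 1 to 3. The KC-Tie2 libraries lay close together inside the Control range. The mean log2 ratio was 0.36 ± 0.039 in KC-Tie2 and 0.31 ± 0.36 in Control kidneys (SD, n = 3 each), a difference of 0.055 (exact permutation test, two-sided, p = 0.7, where this design cannot go below 0.1). Without Control replicate 2 the difference was -0.12, and without Control replicate 1 it was 0.24.

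Foxi1 (chromosome 11, 34154338 to 34158089) had 717, 738 and 801 in KC-Tie2 libraries, against 494, 746 and 561 in Control libraries. Control replicate 2 lay among the KC-Tie2 libraries, and the other Control libraries lay below all of them. The means were 752 ± 43.7 in KC-Tie2 and 600.3 ± 130.4 in Control kidneys (SD, n = 3 each). This was the largest fold of the 10, 1.27, with a 95% interval of 1.03 to 1.57, the widest on the log2 scale after that of Slc4a1 (log2 fold change 0.34 ± 0.14, limma adjusted p = 0.265). Without Control replicate 2 the log2 fold change was 0.51 (limma adjusted p = 0.0210), and without Control replicate 1 it was 0.21 (0.564); these p are the lowest and highest over the alternatives.

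Across the 10 genes the same libraries recurred at the edges. KC-Tie2 replicate 2 was the highest KC-Tie2 library at 8 of the 10 genes and KC-Tie2 replicate 3 the lowest at 7. Control replicate 3 was the lowest Control library at 6. Described over the 6 libraries, each gene followed the mean of the other 9 with Pearson r between 0.54 (Atp6v0a4) and 0.98 (Rhcg). With each genotype centred, r was 0.92 for Rhbg, 0.91 for Rhcg and 0.85 for Atp6v1b1, but -0.079 for Foxi1 and -0.32 for Atp6v0a4. The genes share the libraries and their scaling, so these values are a description.

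Levels per kilobase of exon, using exon lengths of GENCODE vM21, set Atp6v0a4 apart at the top, with 2094 ± 116 normalized counts per kilobase in KC-Tie2 and 1794 ± 200.1 in Control kidneys (SD, n = 3 each). Rhcg came next with 1002 ± 43.3 in KC-Tie2 and 819.6 ± 39.8 in Control kidneys. These were the only members whose range over the 6 libraries stood clear of the next gene. From there Atp6v1b1, Slc26a4, Rhbg, Atp6v1g3, Foxi1, Atp6v0d2, Slc4a1 and Atp6v1c2 followed, each overlapping its neighbour, down to 258 ± 16.7 in KC-Tie2 and 217 ± 5.29 in Control kidneys for Atp6v1c2. Among the broadly expressed subunits Atp6v0c was highest, with 5693 ± 240.1 per kilobase in KC-Tie2 and 5276 ± 285 in Control kidneys. Atp6v1b2 stood at 2131 ± 179.8 per kilobase in KC-Tie2 and 2331 ± 82.9 in Control kidneys, and Atp6v1b1 at 597 ± 75.8 in KC-Tie2 and 489 ± 19.7 in Control kidneys.

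Other genes of intercalated cells were mixed. Of 5 type B markers 1 rose, Oxgr1, the receptor by which these cells sense alpha-ketoglutarate in urine. It had 866, 922 and 932 in KC-Tie2 libraries, against 742, 734 and 676 in Control libraries (log2 fold change 0.34 ± 0.075, limma adjusted p = 0.0464). The call was lost in each of the 6 fits that leave out a library (limma adjusted p 0.0501 to 0.215). Insrr, a sensor of alkali, had a log2 fold change of 0.26 (limma adjusted p = 0.136), the sodium-dependent exchanger Slc4a8 0.29 (0.264), Hmx2 0.074 (0.871) and the blood-side transporter Slc4a9 0.00027 (unadjusted p = 0.997). The type B markers had a median of 0.26.

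Of 6 type A markers none was called, and they did not share a direction. Aqp6, of the aquaporin family, had a log2 fold change of 0.37 (limma adjusted p = 0.299), and without KC-Tie2 replicate 3 it was called (0.53, limma adjusted p = 0.0223). Dmrt2 had a log2 fold change of 0.30 (0.499), the Notch ligand Jag1 0.20 (0.199) and the adhesion receptor Adgrf5, also made by endothelium, 0.14 (0.428). The receptor tyrosine kinase Kit was lower in all KC-Tie2 libraries, with 529.6, 555 and 501 in replicates 1 to 3, against 618, 649 and 619.7 in Control libraries (log2 fold change -0.25, limma adjusted p = 0.153), and the exchanger Slc26a7 stood at -0.12 (0.835). The median was 0.17, with 2 higher and 1 lower at an unadjusted p under 0.05. Of 9 further intercalated cell genes in the table, several shared with other segments, 1 rose: Tmem213, inside the Atp6v0a4 span, with 886, 955 and 943 in KC-Tie2 libraries, against 737, 774 and 699 in Control libraries (log2 fold change 0.33 ± 0.074, limma adjusted p = 0.0479). It kept the call in 1 of the 6 fits with a library left out, that without Control replicate 2 (0.0393). The list had 6 of 9 above 0 and a median of 0.093. The KC-Tie2 libraries lay wholly above the Control libraries at 4 of the 9, against 9.96% of all genes. They lay wholly below at 2, Cftr (log2 fold change -0.28, limma adjusted p = 0.317) and Kcnma1 (-0.30, 0.409). The share of all genes lying wholly below was not counted, so this count has no whole-table share beside it.

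Car2, the cytosolic carbonic anhydrase that feeds the pump and the exchangers, was named after its values were seen. It had 5575, 6637 and 5679.7 in KC-Tie2 libraries, against 4827, 4767 and 4127 in Control libraries, without overlap (log2 fold change 0.38 ± 0.089, limma adjusted p = 0.0578). Car2 thus missed the threshold here, while its FDR in the authors' deposited table was 0.00419.

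**Figure D4:**
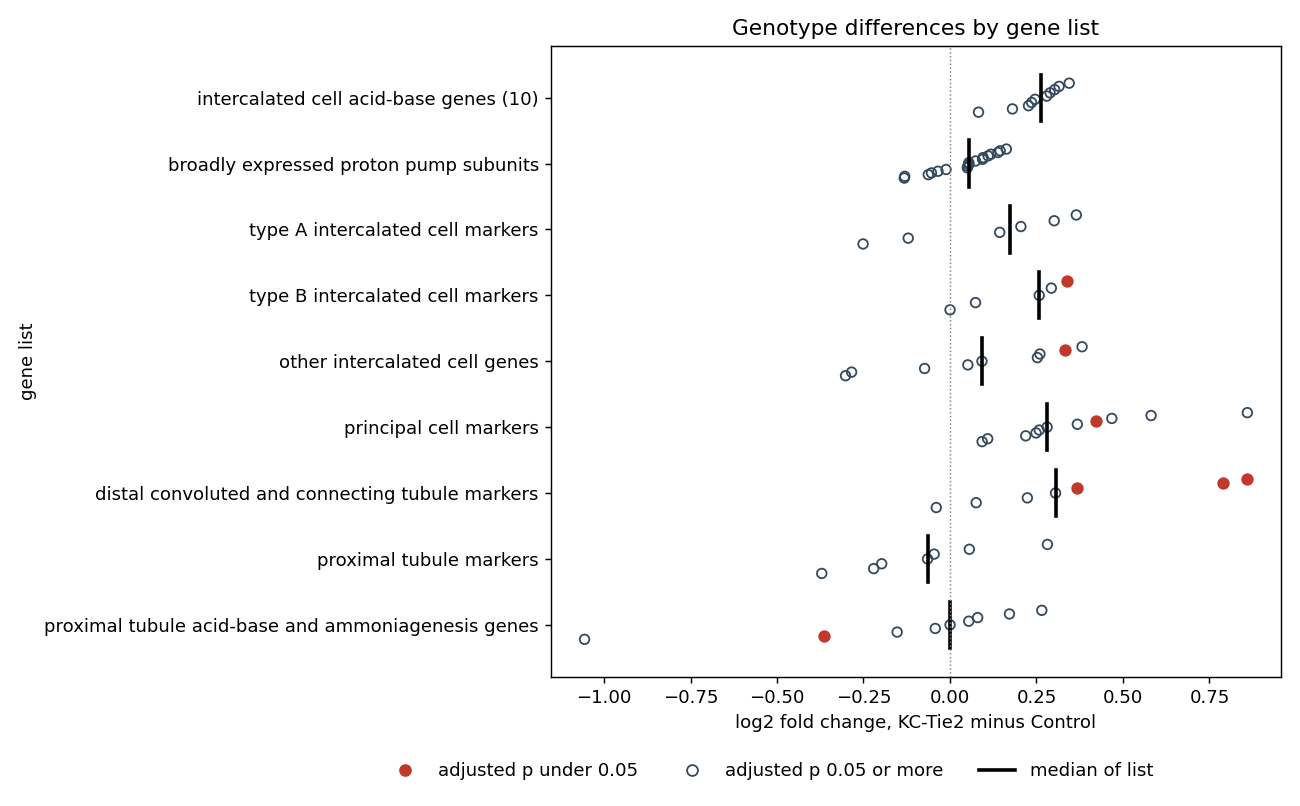
Log2 fold changes, KC-Tie2 minus Control, of single genes in 9 lists, filled where the limma adjusted p was under 0.05, with a bar at each list's median. The 10 intercalated cell acid-base genes lie between 0.083 and 0.34, the broadly expressed pump subunits between -0.13 and 0.16, and the medians of the principal cell and distal tubule lists are 0.28 and 0.31.

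Lists of markers of neighbouring tubule cells had medians near that of the 10 genes. Of 11 principal cell markers, the water- and sodium-handling neighbours of intercalated cells, all lay above 0 with a median of 0.28, and 1 rose. This was the sodium channel subunit Scnn1b, with 1286, 1404 and 1093 in KC-Tie2 libraries, against 943, 979.5 and 888 in Control libraries (log2 fold change 0.42 ± 0.092, limma adjusted p = 0.0444). Of 7 distal convoluted and connecting tubule markers 3 rose, and the median was 0.31. The 3 were the calcium-binding protein Calb1 (0.86, limma adjusted p = 0.0106), the calcium channel Trpv5 (0.79, 0.0158) and the magnesium channel Trpm6 (0.37, 0.0309). At an unadjusted p under 0.05, 7 of the 11 principal cell and 4 of the 7 distal markers were higher, and 0 lower. The same count was 8 for the 10 genes. The KC-Tie2 libraries lay wholly above the Control libraries at 7 of the 11 and 5 of the 7, against 6 of the 10. An FDR under 0.05 in the authors' deposited comparison was held by 3 of the 11 and 4 of the 7, against 1 of the 10. Of 7 proximal tubule markers 2 lay above 0, none was called (unadjusted p under 0.05 at 1 higher and 2 lower), and the median was -0.065, with Slc22a6 at -0.37 (limma adjusted p = 0.119) and Slc5a12 at 0.28 (0.123). The summed principal cell markers were 27507, 26654 and 23437 in KC-Tie2 libraries, against 19766, 21295 and 17709.6 in Control libraries, without overlap. The summed proximal tubule markers were 288507, 320140 and 332742 in KC-Tie2 libraries, against 358128, 336702 and 362597 in Control libraries, also without overlap. Such sums weigh high genes most. Lrp2 (means of 142805 in KC-Tie2 and 163256 in Control kidneys) and Slc34a1 (93558 and 108963) made up most of the proximal tubule sum. Aqp2 (6778 and 3794) differed most within the principal cell sum. Whether the segments shifted was not tested, nor was the part of these list differences in the values of the 10 genes. Scnn1b and Trpm6 lost the call when any 1 of Control replicates 1 or 3 or KC-Tie2 replicates 1 or 2 was left out, and Trpv5 when either of those KC-Tie2 libraries was, with limma adjusted p up to 0.218.

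Upstream acid-base handling in the proximal tubule, where bicarbonate is reclaimed and ammonia is made, showed no common direction. Of 9 genes 1 fell, Car4, the membrane-bound carbonic anhydrase, with 1923, 2247 and 2222 in KC-Tie2 libraries, against 2621, 2744 and 2839.9 in Control libraries (log2 fold change -0.36 ± 0.076, limma adjusted p = 0.0391). It kept the call in 2 of the 6 fits with a library left out (limma adjusted p 0.0296 to 0.171), which left out Control replicate 2 or KC-Tie2 replicate 3. The list had 5 of 9 above 0 and a median of 0.00032. Pck1, an enzyme of glucose and ammonia production that was named after its values were seen, had 21866, 18766 and 41697 in KC-Tie2 libraries, against 76483, 45097 and 44619.8 in Control libraries, without overlap but with a wide spread (log2 fold change -1.06 ± 0.41, limma adjusted p = 0.338).

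Osteoclasts and macrophages can also make Atp6v0d2. Of 10 markers of these cells 8 were tested and 3 rose, the complement chains C1qa (log2 fold change 0.94, limma adjusted p = 0.00742), C1qb (0.76, 0.0210) and C1qc (0.77, 0.0449). The list had a median of 0.37. C1qb and C1qc lost the call when any 1 of Control replicates 1 or 3 or KC-Tie2 replicates 1 or 2 was left out, with limma adjusted p up to 0.228. The summed markers were 3118, 3213 and 3006 in KC-Tie2 libraries, against 2535, 2790.1 and 3015 in Control libraries, with overlap. This sum also weighs high genes most. Csf1r (means of 1345 in KC-Tie2 and 1306 in Control kidneys) and Acp5 (738 and 843) made up most of it. The 5 markers other than the complement chains were not called. The osteoclast and macrophage phosphatase Acp5 had 773, 641 and 801 in KC-Tie2 libraries, against 867, 802 and 862 in Control libraries, wholly lower (log2 fold change -0.20, limma adjusted p = 0.333). The osteoclast protease Ctsk had 57.7, 32.5 and 50.8 in KC-Tie2 libraries, against 49.4, 47.9 and 31.1 in Control libraries. The macrophage genes Csf1r, Cd68 and Adgre1 had log2 fold changes of 0.057, 0.22 and 0.53 (limma adjusted p = 0.884, 0.765 and 0.381), with overlap between the genotypes at each. Atp6v0d2 itself did not pass the test, and the part of these cells in its values was not tested.

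The genes most like the 10 were sought among 12260 others with a mean of at least 50, by Pearson r with the mean of the centred log2 values of the 10. Over the 6 libraries these were C1qc (r 0.998), Fam81a, Srgap1, Nfkbiz, Zfp651, Npr2, Ddr1, Scnn1b, Pcolce and St3gal2 (0.990). Of them C1qc, Nfkbiz, Scnn1b, Pcolce and St3gal2 rose in the limma test (adjusted p 0.0138 to 0.0471). Srgap1 and Zfp651 were not called (adjusted p 0.0747 and 0.0751), and both were called without Control replicate 2 and, with their lowest adjusted p of the fits with a library left out (0.0252 and 0.0372), without KC-Tie2 replicate 3. Each of the 5 that rose lost the call when any 1 of Control replicates 1 or 3 or KC-Tie2 replicates 1 or 2 was left out. With each genotype centred they were Pxylp1 (r 0.999), Med26, Txnrd2, Rnd2, C1qc, Tnfsf12, Lsm14b, Irf7, Fastk and Arv1 (0.988), none of them called apart from C1qc. Only C1qc stood in both lists. With 6 points and so many genes, such values of r describe these libraries only.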

How the data were processed

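Poly(A)-selected RNA of 6 mouse kidney samples, 3 labelled KC-Tie2 and 3 labelled Control, was measured. The submitters' processing notes name Partek 12.5.0, STAR, DESeq2 and mm39, without saying which tool did what. The deposited expression values are a signal, normalized counts scaled per library by the authors. They were not whole numbers, so no count test was used as the main test. Voom, a method made for counts, was run on these values only as an alternative. With voom the median log2 fold change over all genes was 0.036, against 0.0012 in the main fit. Per the file headers, the authors' second deposited table holds a p-value and FDR per gene, the KC-Tie2 to WT ratio and a signed fold change (recorded as a score). It was quoted, not retested.

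Columns were matched to samples by library name. Values were transformed as log2(value + 1). Of 17550 genes, the 17539 that reached a mean of 10 entered a limma 3.58.1 fit (R 4.3.3) with genotype as the only term and trended, robust eBayes moderation. Tests were two-sided, adjusted over all genes tested (Benjamini-Hochberg) and called at an adjusted p under 0.05. Only called genes are said to have risen or fallen. Fold changes are KC-Tie2 minus Control on that log2 scale, which understates changes of low genes. The fit was tested on simulated data. Figures and lengths used Python 3.11.15, pandas 2.3.3, numpy 2.4.6 and matplotlib 3.10.9. Gene ends are the listed stop less 1.

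The 10 genes, the lists and the tests were chosen with earlier results of these data known. Named genes are the 10, all broadly expressed pump subunits and type A and B markers, up to 4 called genes with the largest absolute fold change of each other list (or the 2 of smallest p in a list without a call), and the 10 genes of most similar pattern of each kind, leaving out predicted genes and pseudogenes. Acp5, Adgre1, Aqp2, Car2, Cd68, Cftr, Csf1r, Ctsk, Kcnma1, Klk1, Lrp2, Pck1, Slc12a3 and Slc34a1 fall outside this rule. Alternatives changed the pseudocount (0.5 or 5), the minimum mean (none or 100), the scaling (median ratio or quantile), the design (a replicate block), the moderation (not robust), the weights (by library) or the method (voom), or left out a library.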

Additional observations from a re-analysis of the deposited data

How the results depend on the processing

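All 10 genes kept a log2 fold change above 0 under all 16 alternatives. None of the 10 was called under 13 of them, with library weights calling 1 (Rhcg), where 1.5% of all genes were called as higher. With a library left out in turn, 0 to 4 were called, where 0.143% to 1.77% of all genes were called as higher. The number of genes called over the whole table was 581 with the replicate block and 549 with library weights, against 297. It was 51, 530 and 54 without Control replicate 1, 2 and 3 in turn, and 69, 48 and 682 without KC-Tie2 replicate 1, 2 and 3 in turn. The other scalings, filters and pseudocounts, eBayes without robust and voom left it within 1.5 times of that.

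Whether replicate numbers pair these samples cannot be told from 3 libraries per genotype. Deviations from the group means of same-numbered libraries correlated at 0.18, -0.096 and 0.017 across genes, and those of differently numbered libraries at -0.28 to 0.26. With the replicate block 0 of the 10 genes were called, and 581 genes over the whole table, against 297 without it. The difference in the log2 ratio of Slc26a4 to Slc4a1 ran from -0.12 to 0.24 with a library left out. Besides the libraries left out, eBayes without robust ended the calls of Oxgr1, Tmem213, Car4, Scnn1b and C1qc, voom those of Scnn1b, C1qc and Nfkbiz, the replicate block that of Oxgr1 and a minimum mean of 100 that of C1qc. Genes gained a call with the replicate block (Slc22a6, Srgap1 and Zfp651), library weights (Srgap1 and Zfp651, beside Rhcg), quantile normalization and voom (Slc5a12). Some uncalled genes near 0 changed sign. With a library left out, log2 fold changes ran from -0.096 to 0.014 for Atp6v1a, -0.054 to 0.016 for Atp6v1e1, -0.085 to 0.019 for Atp6v0a2, -0.026 to 0.11 for Atp6v0d1, -0.041 to 0.066 for Slc4a9, -0.040 to 0.20 for Hmx2, -0.085 to 0.10 for Med26, -0.016 to 0.060 for Lsm14b and -0.18 to 0.054 for Arv1. Under quantile normalization Atp6v1a was at 0.025, Atp6v1e1 at 0.022 and Med26 at -0.016, and voom put Atp6v1e1 at 0.023. The cause was not tested. Depth limits low genes such as Ctsk, listed at 31.1 to 57.7.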
